A study of Mus musculus with 20 samples.

Results

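Long noncoding RNAs that are enriched in brain or held in the nucleus were followed across mice that did or did not express the HIV-1 protein Tat. The mice received repeated injections of methamphetamine (Meth) or saline. The set was Meg3, Rian, Mirg, Miat, Malat1, Neat1, Snhg11 and Peg13, and a probe was a member when the RefSeq transcript it was designed against, read without its version, belonged to one of these 8 genes. Of 55681 probes on the array, 1078 were matched to a lncRNA gene and 4 to the set, 1 probe for each of 4 genes. Mirg was read by A_66_P121059 (NR_028265, chromosome 12), Malat1 by A_55_P2021187 (NR_002847, chromosome 19), Neat1 by A_51_P234692 (NR_003513, chromosome 19) and Peg13 by A_66_P136801 (NR_002864, chromosome 15). The rule found no probe for Meg3, Rian, Miat and Snhg11, so these 4 genes have no values here.

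All mice were C57BL/6J males that carried a tetracycline-binding protein under the GFAP promoter, which is active in astrocytes, and all were given doxycycline at 100 mg/kg for 7 days. Tat+ mice also carried the doxycycline-responsive Tat transgene, so that Tat was made from astrocytes, and Tat- mice lacked it. Tat RNA itself was not analysed here. Meth was injected at 2 mg/kg for 7 days and control mice received 0.9% saline. This gave Tat- mice with saline (Tat-/Sal) or Meth (Tat-/Meth) and Tat+ mice with saline (Tat+/Sal) or Meth (Tat+/Meth), with 5 mice and 5 arrays in each group. The sample labels gave the left hemisphere of perfused brain from mice aged 6 to 7 weeks, 24 h after the last injection. The methods instead described caudate putamen from mice aged 3 to 5 months. These were given a single 1 mg/kg Meth challenge after 7 days of abstinence and killed 1 h later. By the methods this challenge went to all groups, so Meth and Sal name the 7 days of injections before it. Of the markers of striatal medium spiny neurons, the main cell type of the caudate putamen, 8 of 8 were well above background on all 20 arrays. Of the markers of cortical excitatory neurons that are reported here, Tbr1, Neurod2 and Fezf2 were well above background on all 20 arrays, Slc17a7 on 18 and Neurod6 on 12.

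Long noncoding RNAs act as RNA, without being translated. Meg3, Rian and Mirg lie in this order in the imprinted Dlk1-Dio3 domain and are expressed from the maternal chromosome, the first as a nuclear RNA, the second as a host of small nucleolar RNAs and the last as a host of microRNAs (miRNAs). Malat1 and Neat1 are abundant nuclear RNAs made from neighbouring genes. Malat1 collects in nuclear speckles, where splicing factors are stored, and Neat1 is the scaffold of the paraspeckles. Peg13 is expressed from the paternal allele within Trappc9 in brain. Miat is a nuclear RNA of neurons and Snhg11 hosts small nucleolar RNAs.

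The sequences that identify what Mirg and Malat1 carry are given first. In the RefSeq tables, 10 miRNA hairpins lay within Mirg, against 3 within Rian and 1 within Meg3, and the Mirg hairpins gave 19 mature miRNAs with 18 different seeds. No array probe was matched to a miRNA gene, so the Mirg probe reports the host transcript and not these products. The first pair below is the only one in Mirg that shares a seed, and the others are shown as products of 4 further hairpins of the cluster. Each mature miRNA is written 5′ to 3′ with its seed, bases 2 to 8, in capitals.
miR-453: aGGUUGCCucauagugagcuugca
miR-496a-5p: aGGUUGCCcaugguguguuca
miR-154-3p: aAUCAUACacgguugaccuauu
miR-377-3p: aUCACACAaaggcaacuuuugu
miR-410-3p: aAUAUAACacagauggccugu
miR-369-3p: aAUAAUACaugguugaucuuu

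Promoter windows of 300 bases were available in RefSeq (GRCm38.p6) for Meg3, Rian, Mirg, Miat, Malat1 and Snhg11 and not for Neat1 and Peg13. Each window was searched on both strands for the CRE TGACGTCA, the GC box GGGCGG, the E-box CACGTG and the TATA box TATAAA. Of 32851 promoter windows, 1.79% held the CRE, 35.7% the GC box, 7.15% the E-box and 13.6% the TATA box. The Malat1 window, chr19:5802623-5802922 on the minus strand, and the Mirg window, chr12:109734731-109735030 on the plus strand, held none of the 4 and had 10 CpG dinucleotides each, against a median of 7 over all windows. One of the Meg3 windows, chr12:109540746-109541045 on the plus strand, held a CRE and a TATA box that reads on both strands, and it is shown because Mirg lies downstream of Meg3 in the same direction. Motif matches are in capitals.
Mirg: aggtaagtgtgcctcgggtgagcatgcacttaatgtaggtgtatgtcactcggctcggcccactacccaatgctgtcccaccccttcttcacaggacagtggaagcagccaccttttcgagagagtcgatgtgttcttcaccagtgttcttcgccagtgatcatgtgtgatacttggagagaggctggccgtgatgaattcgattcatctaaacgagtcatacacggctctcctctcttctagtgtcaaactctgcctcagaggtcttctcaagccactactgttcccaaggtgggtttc
Malat1: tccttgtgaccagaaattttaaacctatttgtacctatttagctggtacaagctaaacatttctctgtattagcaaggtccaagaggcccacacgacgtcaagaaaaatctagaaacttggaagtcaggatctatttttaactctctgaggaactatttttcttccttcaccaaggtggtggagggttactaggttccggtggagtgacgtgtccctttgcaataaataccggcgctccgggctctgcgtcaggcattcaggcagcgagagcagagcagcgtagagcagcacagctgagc
Meg3: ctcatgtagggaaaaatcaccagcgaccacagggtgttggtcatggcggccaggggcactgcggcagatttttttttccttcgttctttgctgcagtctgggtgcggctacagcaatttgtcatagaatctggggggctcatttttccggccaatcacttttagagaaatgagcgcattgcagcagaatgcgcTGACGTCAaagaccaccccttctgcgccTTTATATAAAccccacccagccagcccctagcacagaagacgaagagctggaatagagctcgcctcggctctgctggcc

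Signals are given as the log2 of the background-subtracted Cy3 signal after each array was shifted to a common 75th percentile, a scale on which 1 unit is a 2-fold change. The level of a probe depends on its sequence, so levels were compared between mice and never between probes. All 4 probes were well above background on 20 of 20 arrays, none was saturated on any array, and all passed the signal filter that left 31516 probes for testing. The 5 Tat-/Meth arrays filled slide 1 and no other group was on it, so Tat-/Meth and slide cannot be told apart. Slide 2 held the 5 Tat-/Sal arrays with Tat+/Meth mice 1 to 3, and slide 3 held the 5 Tat+/Sal arrays with Tat+/Meth mice 4 and 5. The 75th percentile of the unscaled log2 signal was 9.64 to 9.79 on the Tat-/Meth arrays and 9.75 to 10.33 on the others.

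Mirg was the member with the largest difference between groups. Its scaled log2 signal was 12.17, 11.86, 11.75, 12.08 and 11.82 in the 5 Tat-/Sal mice and 12.59, 12.62, 12.73, 12.71 and 12.49 in the 5 Tat-/Meth mice. It was 11.93, 11.97, 11.94, 11.93 and 11.90 in the Tat+/Sal mice and 11.86, 11.76, 11.90, 12.23 and 10.96 in the Tat+/Meth mice. Every Tat-/Meth mouse was thus above all 15 other mice, whereas the other groups overlapped. Tat+/Sal was the tightest group, with a mean of 11.94 ± 0.03 (SD, n = 5), and Tat+/Meth the widest, at 11.74 ± 0.47 (SD, n = 5). Tat+/Meth mouse 5 was the lowest array of all and mouse 4, on the same slide, the highest of its group.

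Malat1 varied over a narrower range. Its scaled log2 signal was 11.01, 11.44, 11.12, 11.23 and 11.26 in Tat-/Sal mice and 11.61, 11.48, 11.85, 11.22 and 11.43 in Tat-/Meth mice. It was 11.01, 11.06, 11.28, 10.99 and 11.02 in Tat+/Sal mice and 11.26, 11.41, 11.07, 11.10 and 11.23 in Tat+/Meth mice. The ranges of all 4 groups overlapped with at least one other group, and 3 of 5 Tat-/Meth mice were above every Tat-/Sal mouse.

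Neat1 was spread most widely in the Tat-/Meth and Tat-/Sal groups. Its scaled log2 signal was 11.82, 12.49, 12.00, 12.05 and 12.15 in Tat-/Sal mice and 12.65, 12.24, 12.88, 12.03 and 12.38 in Tat-/Meth mice. It was 11.99, 11.91, 12.19, 12.13 and 12.19 in Tat+/Sal mice and 12.08, 11.75, 11.90, 11.86 and 12.09 in Tat+/Meth mice. In the Tat-/Meth group, the mice that were high for Malat1, mice 1 and 3, were also the highest for Neat1, and mouse 4 was the lowest for both.

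Peg13 was nearly level across the study. Its scaled log2 signal was 15.52, 15.63, 15.65, 15.62 and 15.71 in Tat-/Sal mice and 15.88, 15.69, 15.69, 15.79 and 15.58 in Tat-/Meth mice. It was 15.76, 15.55, 15.67, 15.55 and 15.48 in Tat+/Sal mice and 15.56, 15.66, 15.76, 15.43 and 15.62 in Tat+/Meth mice. All groups overlapped, and their means ran from 15.60 to 15.73.

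**Figure D1:**
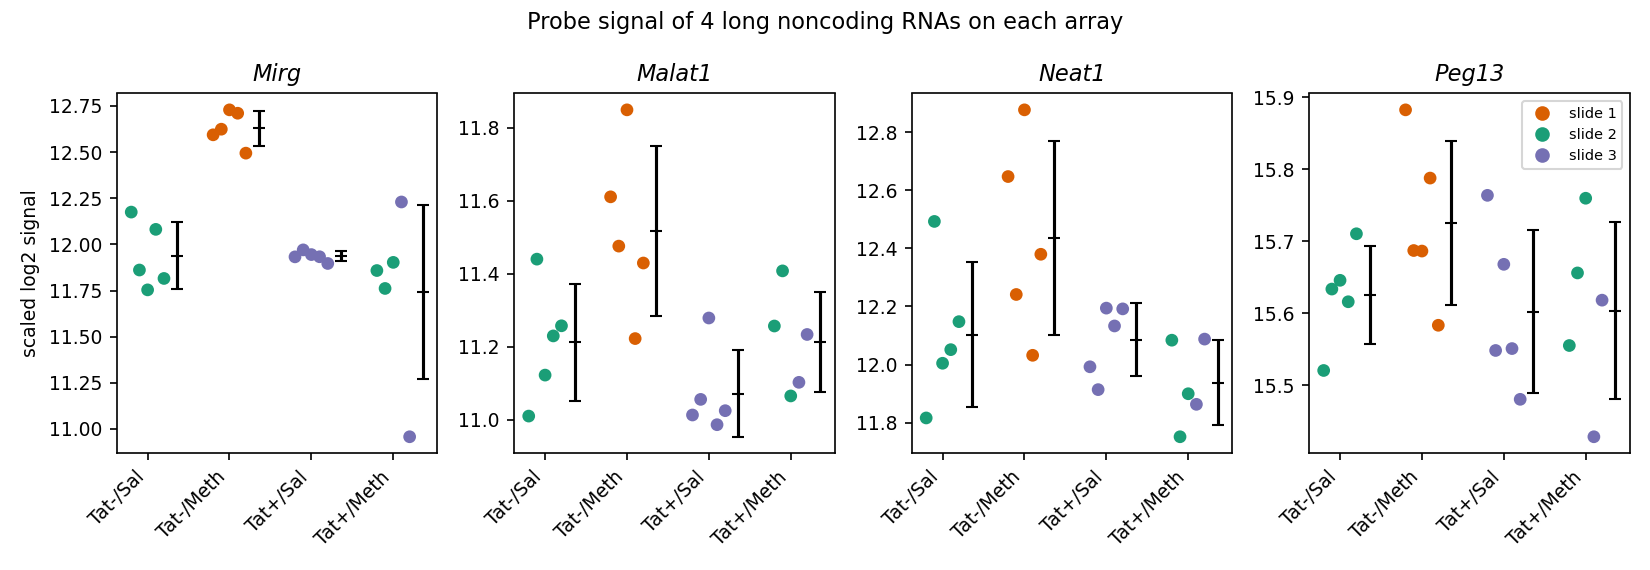
Scaled log2 signal (vertical axis) of the Mirg, Malat1, Neat1 and Peg13 probes on each of 20 arrays, by group, with points coloured by slide and bars for the group mean ± SD (n = 5). The 5 Tat-/Meth points of Mirg, all on slide 1, lie between 12.49 and 12.73, above every other point, while the groups of Malat1, Neat1 and Peg13 overlap. Without scaling the Mirg groups overlap too.

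Meth in the absence of Tat was examined by comparing Tat-/Meth with Tat-/Sal. Mirg rose by 0.69 ± 0.16 (log2 difference ± SE, n = 5 per group, limma, adjusted p = 0.00129), a 1.62-fold change, with groups that did not overlap. Malat1 rose by 0.31 ± 0.11, or 1.24-fold (limma, adjusted p = 0.0219), with groups that did overlap. Neat1 differed by 0.33 ± 0.14 (limma, adjusted p = 0.0565) and Peg13 by 0.10 ± 0.07 (limma, adjusted p = 0.256), and neither passed the limit of 0.05. Thus 2 of 4 members passed, both higher, in a comparison in which 50.3% of all tested probes passed and 28.1% passed as higher. Non-overlapping groups with Tat-/Meth higher, as for Mirg, were found for 20.3% of all probes. None of the members exceeded 2-fold, as 11.6% of all probes did with an adjusted p under 0.05.

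The size of these differences depended on how the arrays were put on a common scale. Over all tested probes the median difference was 0.10 with the 75th percentile, -0.33 without scaling and -0.25 with scaling to 4 E1A spike-in probes whose mean level was between 9 and 16, the last chosen after the data were seen. Mirg then differed by 0.27 without scaling (limma, adjusted p = 0.291) and by 0.35 with the spike-in probes (limma, adjusted p = 0.154), and neither value passed. Relative to the median of all probes Mirg was higher by 0.59, 0.60 and 0.60 under these settings in turn. Malat1 turned to -0.12 and -0.034 and Neat1 to -0.088 and -0.0067 without scaling and with the spike-in probes. Relative to the median they were higher by 0.21 to 0.22 and by 0.23 to 0.24 in these 3 settings. All 3 settings shift every probe of an array alike, so their values relative to the median agree by construction. Quantile normalization does not, and there Mirg was 0.53, Malat1 0.15 and Neat1 0.17 above the median. Malat1 also missed the limit with median scaling (0.43, limma, adjusted p = 0.0778) and with normexp background correction (0.26, adjusted p = 0.0545). Peg13 lay near the median, at 0.0015, 0.0098 and 0.0096 from it with the 75th percentile, without scaling and with the spike-in probes. After quantile normalization it was 0.11 above the median and passed as higher (0.22, limma, adjusted p = 0.0144), whereas without scaling it passed as lower (-0.32, adjusted p = 0.0145). After 75th percentile scaling the 4 spike-in probes themselves differed by 0.10 to 0.64 in the same direction as the members. Among the control spots outside that range of levels, the brightest went the other way, with -0.19 and -0.89 for 2 E1A probes and -1.87 for the bright corner spots, and the other 4 E1A probes differed by 0.14 to 0.96. The part of these in the members' differences was not tested. The share of calls that were higher moved from 55.8% to 2.23% without scaling, to 3.88% with the spike-in probes and to 80.7% after normexp background correction.

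**Figure D2:**
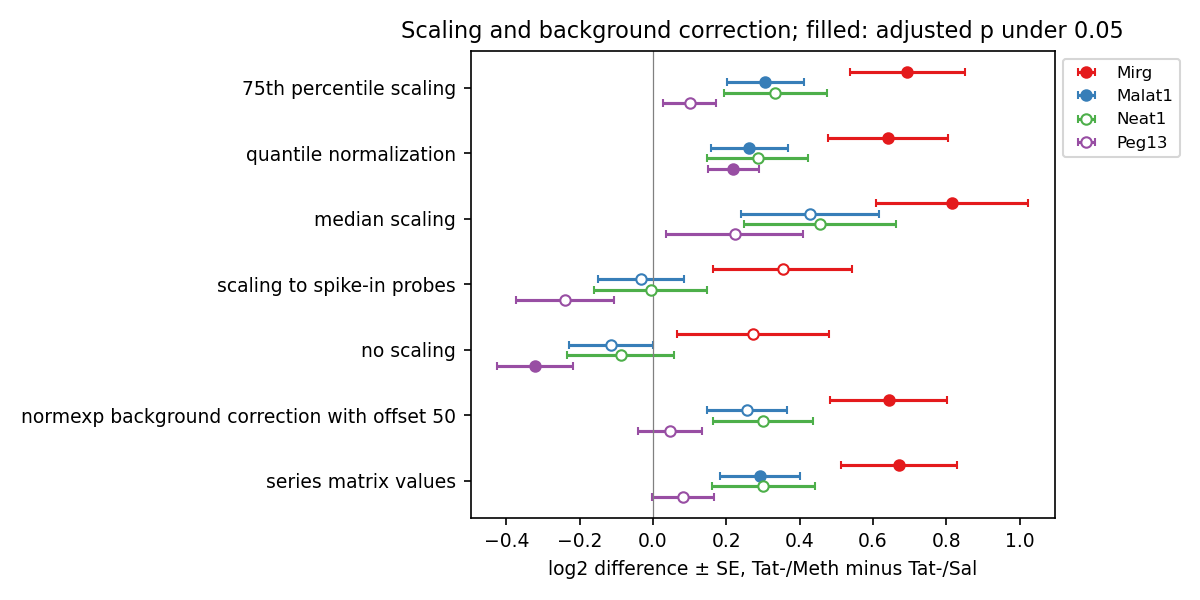
Log2 difference ± SE (horizontal axis) of each member between Tat-/Meth and Tat-/Sal mice (n = 5 each) under 7 ways of scaling or background correction (rows); filled points had an adjusted p under 0.05. Mirg lies between 0.27 and 0.82 throughout, whereas Malat1, Neat1 and Peg13 fall below 0 without scaling and with the spike-in probes.

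Some calls rested on single mice. Malat1 no longer passed without Tat-/Sal mouse 1 (0.26, limma, adjusted p = 0.0628), Tat-/Meth mouse 1 (0.28, adjusted p = 0.0505) or Tat-/Meth mouse 3 (0.22, adjusted p = 0.0714). Neat1 passed without Tat-/Sal mouse 2 (0.43, limma, adjusted p = 0.0153), Tat-/Meth mouse 2 (0.38, adjusted p = 0.044) or Tat-/Meth mouse 4 (0.43, adjusted p = 0.014). Mirg passed in all 20 fits that left out 1 mouse, at 0.65 to 0.75.

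Tat in Meth-treated mice was examined by comparing Tat+/Meth with Tat-/Meth, a comparison that shares the Tat-/Meth arrays with the previous one. Mirg was lower by 0.89 (log2 difference -0.89 ± 0.16, limma, adjusted p = 0.00012), and all 5 Tat+/Meth mice were below all 5 Tat-/Meth mice. Without Tat+/Meth mouse 5 the difference was -0.69. Neat1 was lower by 0.50 (-0.50 ± 0.14, limma, adjusted p = 0.00611) and Malat1 by 0.30 (-0.30 ± 0.11, limma, adjusted p = 0.021), each with overlapping groups. Peg13 differed by -0.12 ± 0.07 (limma, adjusted p = 0.163). Thus 3 of 4 members fell, where 53.5% of all probes passed and 30.3% passed as lower, and groups that did not overlap with Tat+/Meth lower were found for 21.1% of all probes. With the spike-in probes Mirg fell by 0.49 (limma, adjusted p = 0.0397) and was the only member that passed, as it did without scaling (-0.55, adjusted p = 0.0379), while with the spike-in probes Neat1 stood at -0.10, Malat1 at 0.092 and Peg13 at 0.27. Relative to the median of all probes, Mirg was at -0.79 with the 75th percentile and -0.80 with the spike-in probes, Neat1 at -0.40 and -0.41, and Malat1 at -0.21 and -0.22. These values again agree by construction, and quantile normalization gave -0.70 for Mirg, -0.32 for Neat1 and -0.13 for Malat1. The share of calls that were higher was 43.4% with the 75th percentile, 94.9% without scaling, 97.3% with the spike-in probes and 21.9% after normexp. Malat1 missed the limit with median scaling (-0.46, limma, adjusted p = 0.0512) and with normexp (-0.26, adjusted p = 0.0551), and also without Tat-/Meth mouse 3 (-0.22, limma, adjusted p = 0.0699) or Tat+/Meth mouse 3 (-0.27, adjusted p = 0.0553).

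Tat alone, Meth in Tat-expressing mice, and Tat with Meth against Tat-/Sal were the comparisons that did not involve slide 1. Tat+/Sal vs. Tat-/Sal was still a contrast of slide 3 with slide 2, which only the Tat+/Meth arrays bridged. With slide as a fixed block it gave 0.24 for Mirg and 0.11 for Peg13. No member passed in Tat+/Sal vs. Tat-/Sal, where 0.708% of all probes passed. There Mirg differed by -0.0019 ± 0.16, Malat1 by -0.14 ± 0.11, Neat1 by -0.018 ± 0.14 and Peg13 by -0.023 ± 0.07, and the 95% intervals reached no further than -0.36 and 0.33. With Meth given to Tat+ mice (Tat+/Meth vs. Tat+/Sal), no member and none of the 31516 probes passed with limma after adjustment, whereas 3624 probes had an unadjusted p under 0.05. Mirg differed by -0.19 ± 0.16, Malat1 by 0.14 ± 0.11, Neat1 by -0.15 ± 0.14 and Peg13 by 0.0012 ± 0.07 in that comparison. In Tat+/Meth vs. Tat-/Sal no member passed, where 0.00317% of all probes passed, and the members differed by between -0.20 (Mirg) and 0.0013 (Malat1). The negative Mirg values depended on which Tat+/Meth mice were included. Without mouse 5, the lowest, they were 0.0007 against Tat-/Sal and 0.0026 against Tat+/Sal, with mouse 4 (12.23), the highest, still included. Of the 5 Tat+/Meth mice, 3 were below and 1 was above all Tat+/Sal mice. Within slide 2, where 5 Tat-/Sal and 3 Tat+/Meth arrays were read together, Mirg differed by -0.097, Malat1 by 0.031, Neat1 by -0.19 and Peg13 by 0.032 (limma, adjusted p = 0.672 to 0.942). Within slide 3, Tat+/Meth and Tat+/Sal differed by -0.34 for Mirg, 0.096 for Malat1, -0.11 for Neat1 and -0.079 for Peg13 (adjusted p = 1 for each).

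Whether Meth acted differently with and without Tat was tested as an interaction, the log2 difference made by Meth in Tat+ mice minus the one it made in the absence of Tat. It was -0.89 ± 0.22 for Mirg (limma, adjusted p = 0.00417), whose signal was 0.69 higher with Meth in Tat- mice and 0.19 lower in Tat+ mice. The interaction was -0.48 ± 0.20 for Neat1 (limma, adjusted p = 0.0659), -0.16 ± 0.15 for Malat1 (adjusted p = 0.415) and -0.10 ± 0.10 for Peg13 (adjusted p = 0.479). Thus 1 of 4 members passed, where 37% of all probes did. With the spike-in probes the Mirg term was -0.38 (limma, adjusted p = 0.263) and without scaling -0.40 (adjusted p = 0.279), where Peg13 passed instead (0.39, adjusted p = 0.0396). Of all calls in the interaction, 51.2% were higher with the 75th percentile, 99% without scaling, 99.3% with the spike-in probes and 25.3% after normexp. Neat1 passed without Tat-/Sal mouse 2 (-0.58, limma, adjusted p = 0.023) or Tat-/Meth mouse 4 (-0.58, adjusted p = 0.0216).

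**Figure D3:**
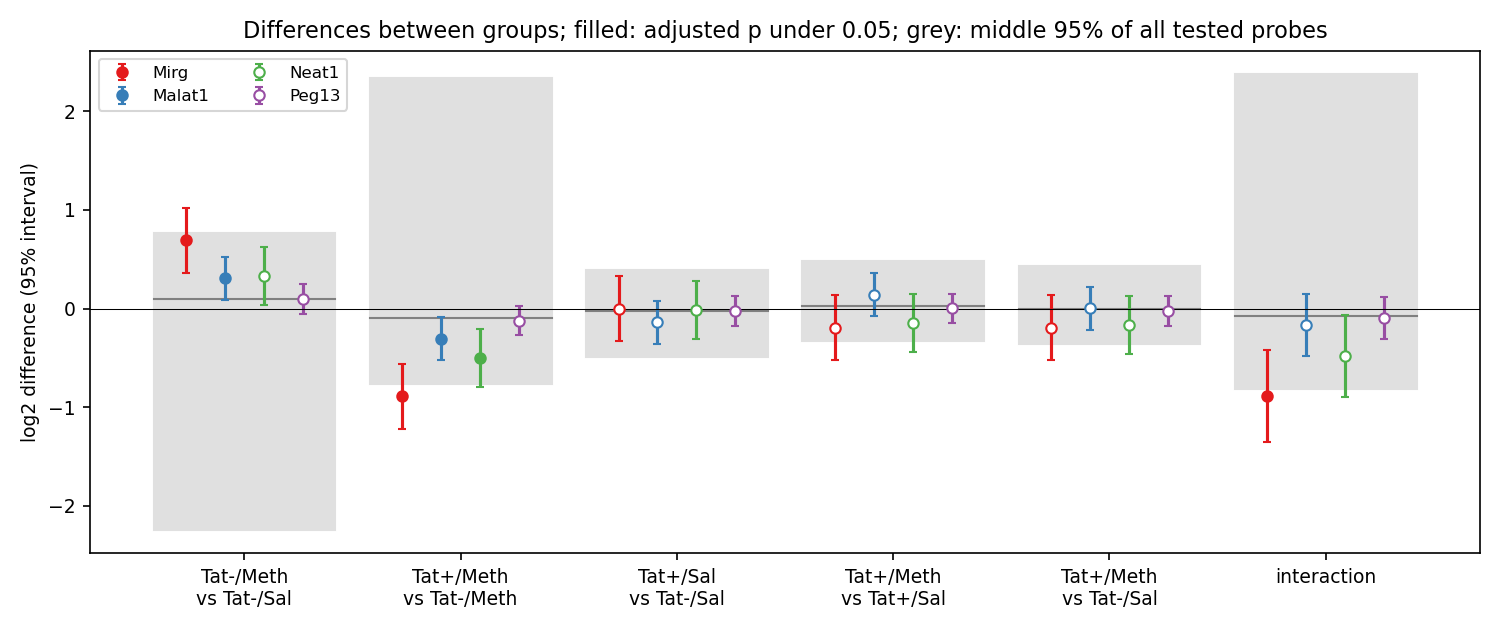
Log2 difference with its 95% interval (vertical axis) for the 4 members in 5 comparisons and the interaction (n = 5 per group); filled points had an adjusted p under 0.05, grey boxes span the middle 95% of all 31516 tested probes and grey lines mark their median. Mirg leaves the grey box in Tat+/Meth vs. Tat-/Meth (-0.89) and in the interaction (-0.89), and in the 3 comparisons without Tat-/Meth no interval of a member excludes 0.

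Malat1 and Neat1 are adjacent genes with no other listed gene between them. Their signals moved together between mice of the same group in the Tat- groups, but not clearly in the Tat+ groups. In each Tat- group, the mouse highest for Malat1 was also the highest for Neat1, and the lowest was the same mouse. In Tat+/Meth, mouse 2 was the highest for Malat1 (0.19 from the group mean) and the lowest for Neat1 (-0.19). In Tat+/Sal, mouse 3 was the highest for both, but mouse 5 was at -0.047 for Malat1 and 0.11 for Neat1. The groups were not tested apart. Over 20 arrays the deviations from the group means had a Pearson r of 0.75 (permutation within groups, two-sided, p = 0.00198) and a Spearman rho of 0.66 (permutation p = 0.00831). The relation of Malat1 and Neat1 was the one of 14, over the 6 pairs of members and their relations with 2 array measures, whose Pearson r passed adjustment (adjusted permutation p = 0.0277). Its rho did not (adjusted permutation p = 0.098). The r was 0.57 without the 2 arrays farthest from the Malat1 median, 0.60 within slide 2 (8 arrays; exact permutation p = 0.115) and 0.43 within slide 3 (7 arrays; exact permutation p = 0.36). Slide 1 held 5 arrays, too few for a value of its own. Among the 31377 probes compared, the named genes with deviations most like those of Neat1 were Cnbd2 (0.79), Zbtb10 (0.78), Dock5 (0.77), Elk3 (0.76) and Malat1 (0.75), at ranks 7 to 11 behind probes without a gene name. These values have no test and the arrays share hybridisation and RNA quality. Mirg had an r of -0.25 and Peg13 of 0.05 with Neat1.

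**Figure D4:**
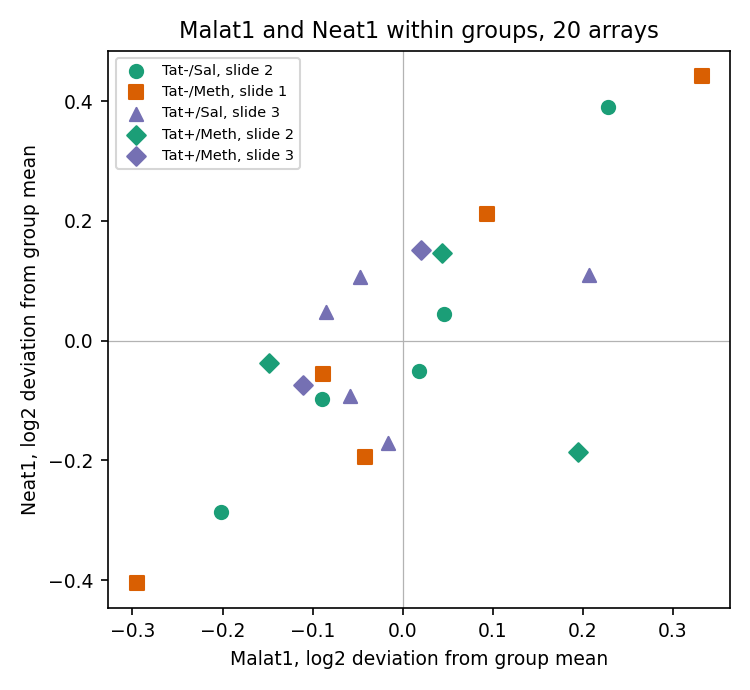
Deviation of the scaled log2 signal from the group mean for Malat1 (horizontal axis) and Neat1 (vertical axis) on 20 arrays, with symbols for groups and colours for slides. Over all arrays the points run from the lower left to the upper right (r = 0.75), and the farthest from the origin are Tat-/Meth mice on slide 1. Those of the Tat+ groups follow this less clearly, and Tat+/Meth mouse 2 lies at the lower right.

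The array measures that could accompany these signals were set beside them. Deviations of Mirg from the group mean had an r of 0.49 with those of the array's unscaled 75th percentile (permutation p = 0.0159, adjusted p = 0.111), and those of Malat1 and Neat1 had r of -0.35 and -0.25 (adjusted permutation p = 0.36 and 0.572). Within slide 3 these were -0.81 for Malat1 and -0.73 for Neat1. The scaled signal is the log2 signal shifted by this same percentile, so these r values are in part set by construction. The shared shift can also add to the r between 2 members. Of 49 tested cell type markers, 6 rose and 6 fell in Tat-/Meth vs. Tat-/Sal, where 28.1% of all probes rose and 22.2% fell. These groups did not overlap, in either direction, for 36.6% of all probes. Of 9 lists of cell type markers, the summed signal of 1, that of neurons, did not overlap between Tat-/Meth (18.37 to 18.45, log2) and Tat-/Sal mice (18.47 to 18.75). Of its 6 genes only Snap25 passed, lower by 0.74 (-0.74 ± 0.09, limma, adjusted p = 2.19e-06), and the median difference of the list was 0.10. The 6 astrocyte markers summed to between 18.06 and 18.33 in Tat-/Meth and between 18.28 and 18.55 in Tat-/Sal mice, but 2 genes rose and only Aldoc fell (-0.36 ± 0.08, adjusted p = 0.00126), with a list median of 0.19. The 5 endothelial markers summed to between 14.75 and 15.24 in Tat-/Meth and between 14.52 and 14.84 in Tat-/Sal mice, with 2 genes higher and a median of 0.10. All genes of these 3 lists were well above background on all 20 arrays. The 5 tested markers of cortical excitatory neurons summed to between 9.34 and 10.30 in Tat-/Meth and between 9.65 and 11.45 in Tat-/Sal mice, with a median difference of -0.79 and 1 gene, Neurod2, past the limit (-1.22 ± 0.38, adjusted p = 0.0117). That sum was 9.04 to 11.19 in Tat+/Sal and 9.28 to 9.84 in Tat+/Meth mice. The part of these in the members' differences was not tested. In such bulk RNA, a change in the number of cells of a type and a change in the RNA per cell cannot be told apart.

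The genes that surround or work with the members were read from 8 lists, with 59 of 75 listed genes tested by their brightest probe. With 75th percentile scaling 22 rose and 4 fell in Tat-/Meth vs. Tat-/Sal, where 28.1% of all tested probes rose and 22.2% fell. Scaled to the spike-in probes, none of the 59 rose and 13 fell, where 1.48% of all probes rose and 36.7% fell. Between Tat+/Meth and Tat-/Meth 4 rose and 23 fell, where 23.2% of all probes rose and 30.3% fell, against 20 higher and 1 lower with the spike-in probes, where 43.4% and 1.21% of all probes passed. The directions in the lists that follow are therefore those after 75th percentile scaling, to be read beside these shares and the median over all probes, which was 0.10 in the first of these comparisons and -0.09 in the second.

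The tested protein-coding genes in or near the Dlk1-Dio3 domain did not pass where Mirg did. Of 5 tested genes (Dlk1, Begain, Wdr25, Wars and Ppp2r5c, each by its brightest probe) none passed in any of the 5 comparisons or the interaction, although with the spike-in probes 2 fell in Tat-/Meth vs. Tat-/Sal and 4 rose in Tat+/Meth vs. Tat-/Meth. Their median difference between Tat-/Meth and Tat-/Sal was 0.06 beside 0.10 over all probes. Dlk1, which encodes a Notch-related membrane protein, differed by 0.96 ± 0.41 (limma, adjusted p = 0.061), and by 0.98 ± 0.49 with another probe (adjusted p = 0.1). Its brightest probe had a wide spread, from 8.43 to 10.66 in Tat-/Sal and from 9.49 to 10.91 in Tat-/Meth mice. Another Ppp2r5c probe, A_66_P139664, was lower by 0.59 (log2 difference -0.59, limma, adjusted p = 7.22e-08), in contrast to 0.06 for the brightest. Rtl1 and Dio3 were below the signal limit, so of the genes that name the domain only Dlk1 was tested. Of 2 further noncoding RNAs of the domain, looked up after their values were seen, 6430411K18Rik rose by 0.27 ± 0.09 (limma, adjusted p = 0.0168) and Dio3os differed by -0.39 ± 0.28 (adjusted p = 0.254).

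Genes for the proteins that meet Neat1 and Malat1 in the nucleus were higher in Tat-/Meth than in Tat-/Sal mice where they passed. With the spike-in probes the median difference of each list turned negative, though not the difference of every gene. Of 10 paraspeckle genes 5 rose and none fell in Tat-/Meth vs. Tat-/Sal, with a median difference of 0.23, beside 28.1% of all probes that rose. In Tat+/Meth vs. Tat-/Meth 6 fell, with a median of -0.24, beside 30.3% of all probes that fell. With the spike-in probes the medians were -0.11 and 0.15, with none higher and 1 lower in the first comparison and 1 higher and none lower in the second. Hnrnpk, an RNA-binding protein, rose by 0.46 ± 0.06 (limma, adjusted p = 1.15e-05) and Rbm14, a coactivator that paraspeckles need, by 0.22 ± 0.07 (adjusted p = 0.0111). Nono, a core paraspeckle protein, fell by 0.37 in Tat+/Meth vs. Tat-/Meth (-0.37 ± 0.06, adjusted p = 6.61e-05), as Hnrnpk did by 0.53 and Rbm14 by 0.28. Sfpq, the partner of Nono, differed by 0.05 between Tat-/Meth and Tat-/Sal and did not pass.

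Of 8 nuclear speckle genes 4 rose and none fell in Tat-/Meth vs. Tat-/Sal, with a median of 0.24, and 7 fell in Tat+/Meth vs. Tat-/Meth, with a median of -0.32. With the spike-in probes the medians were -0.10 and 0.072, with no gene past the limit in the first comparison and 1 in each direction in the second. The splicing factors Srsf1 and Srsf7 rose by 0.63 ± 0.08 (limma, adjusted p = 5.93e-06) and 0.26 ± 0.07 (adjusted p = 0.00366). Srsf1 fell by 0.73 in Tat+/Meth vs. Tat-/Meth, Srsf2 by 0.47 and Srrm2, a speckle scaffold, by 0.35, and Srsf1 was the one of them to pass with the spike-in probes (-0.33, adjusted p = 0.0482). Son, another speckle scaffold, was the only gene of all companion lists to pass in Tat+/Sal vs. Tat-/Sal, groups that were on different slides. It fell by 0.27 (-0.27 ± 0.06, adjusted p = 0.0473) and did not pass with the spike-in probes (-0.39, adjusted p = 0.306). Of 3 splicing factors bound by Miat, Qk rose by 0.44 ± 0.10 in Tat-/Meth vs. Tat-/Sal (adjusted p = 0.00139) and fell by 0.48 in Tat+/Meth vs. Tat-/Meth, and Sf1 and Celf3 did not pass. Qk did not pass with the spike-in probes (0.099, adjusted p = 0.52).

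Around Peg13, the host gene Trappc9, a vesicle-trafficking subunit, was higher in Tat-/Meth than in Tat-/Sal mice by 0.35 ± 0.06 (limma, adjusted p = 5.13e-05) although Peg13 did not pass. A further Trappc9 probe gave 0.35 as well, and with the spike-in probes the difference was 0.014 (adjusted p = 0.937). Kcnk9, a potassium channel expressed from the maternal allele in brain, fell by 1.40 (-1.40 ± 0.31, adjusted p = 0.00108) and its spot was not well above background on 1 of 5 arrays of the Tat-/Meth group. Ago2, which loads miRNAs, rose by 0.34 ± 0.13 with its brightest probe (adjusted p = 0.0359) and fell by 0.41 with another (-0.41, adjusted p = 0.0371), so its probes disagreed. Chrac1 differed by 0.05 and did not pass. Trappc9 fell by 0.33 and Kcnk9 rose by 1.41 in Tat+/Meth vs. Tat-/Meth. Kcnk9 passed in both comparisons with the spike-in probes too (-1.74 and 1.80).

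Other long noncoding and imprinted genes moved in both directions. Of 12 other long noncoding RNAs tested, 4 rose and 2 fell in Tat-/Meth vs. Tat-/Sal, and over the 416 tested probes of lncRNA genes 49.5% passed, 23.3% of all as higher. Pvt1 fell by 1.43 (-1.43 ± 0.16, limma, adjusted p = 5.18e-07), Airn, the antisense RNA that silences Igf2r on the paternal chromosome, fell by 0.57 (-0.57 ± 0.10) and Dleu2, a miRNA host, rose by 0.59 ± 0.08. Pvt1 rose by 1.51 in Tat+/Meth vs. Tat-/Meth, Airn rose by 0.64 and Dlx6os1, expressed in GABA neuron lineages, fell by 0.59. With the spike-in probes Pvt1 (-1.77 and 1.90) and Airn (-0.91 and 1.03) passed in both comparisons in the same direction, and Dleu2 (0.25, adjusted p = 0.172) and Dlx6os1 (0.20, adjusted p = 0.305) did not pass in Tat-/Meth vs. Tat-/Sal. Of 6 other small nucleolar RNA host genes, Snhg1 rose by 0.48 ± 0.09 and Snhg3 by 0.37 ± 0.08 in Tat-/Meth vs. Tat-/Sal, and no other passed. Of 11 other imprinted genes 4 rose and 1 fell, with Usp29 higher by 0.28 ± 0.09 and Blcap lower (-0.64 ± 0.12), so that 5 of 11 passed beside 50.3% of all probes. Of these 4 genes, only Blcap passed in the same direction with the spike-in probes (-0.98, adjusted p = 0.000113), where Snhg1 stood at 0.14, Snhg3 at 0.031 and Usp29 at -0.055. No gene of any companion list passed in Tat+/Meth vs. Tat+/Sal or in Tat+/Meth vs. Tat-/Sal.

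**Figure D5:**
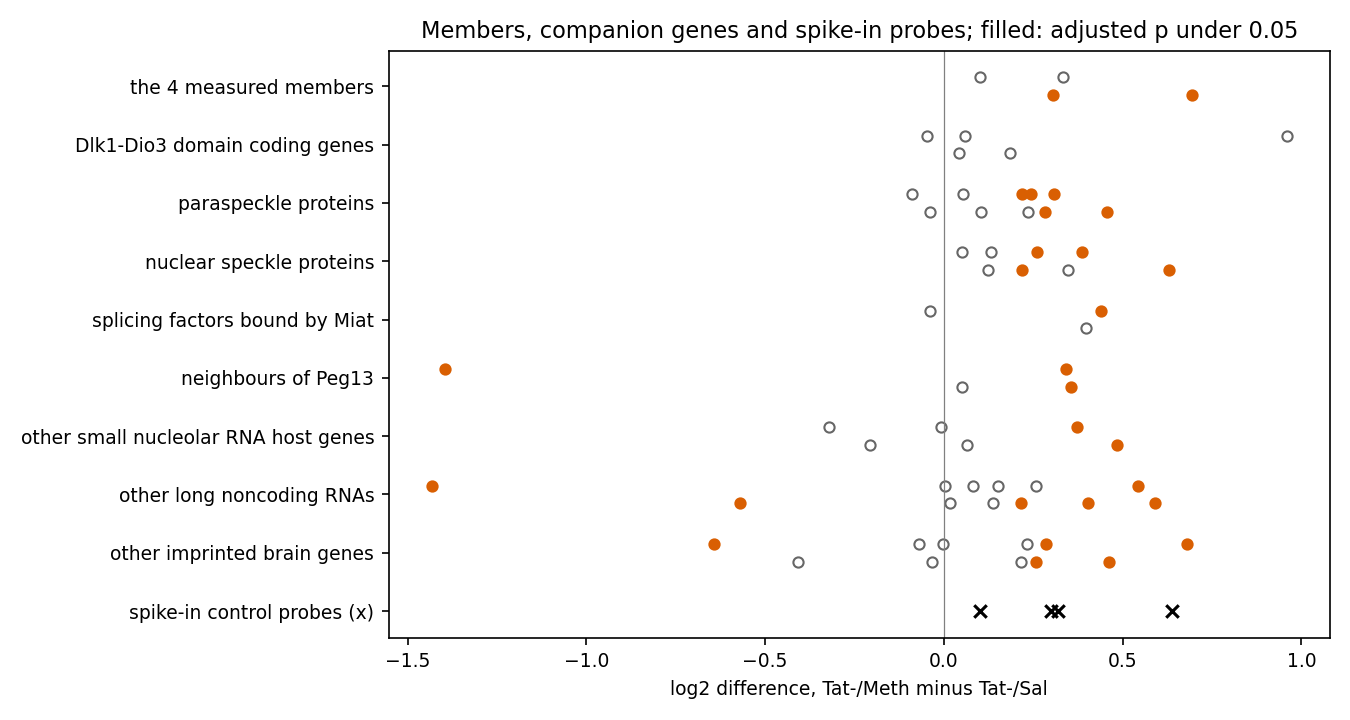
Log2 difference between Tat-/Meth and Tat-/Sal mice (horizontal axis, n = 5 each) for the members, the 59 tested genes of 8 companion lists and 4 spike-in control probes (rows); filled points had an adjusted p under 0.05, and crosses are spike-in probes without a test. Of the companion genes 22 rose and 4 fell after 75th percentile scaling, against none and 13 with the spike-in probes, which themselves lie between 0.10 and 0.64 here.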

How the data were processed

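Total RNA of 20 mice, 5 per group, was hybridised to 1-colour (Cy3) Agilent arrays. The authors deposited scanner output of Agilent Feature Extraction 10.7.3.1 with gProcessedSignal, a background-subtracted intensity, and a series matrix of processed intensity values. The methods name another dye and scanner, and the file headers were followed. Per the files there are 62976 spots an array. Control spots and 4278 outlier spots were left out, spots of a probe were averaged, and log2 intensity was shifted to a common 75th percentile. Probes with a mean of at least 6 in 1 group and values on 3 arrays per group were tested (31516). Probe names came from RefSeq accessions, which gave 27656 probes a symbol.

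limma 3.58.1 (R 4.3.3) was fitted with 1 mean per group, and p-values were adjusted over all tested probes (Benjamini-Hochberg), with a limit of 0.05. The number of arrays limits the precision. In simulated data with these levels, 53% of probes changed by 0.5 and 85% of those changed by 1 (log2) were called. There 100 of 31516 probes were changed by each amount, whereas 50.3% of probes passed in Tat-/Meth vs. Tat-/Sal. The cutoff after adjustment depends on this share, so the simulated rates do not describe that comparison. Replicates are mice with their own labels, and p-values measure the spread between these samples. Correlations used 100000 permutations within groups. Deviations of same-numbered mice of different groups had a median correlation of 0.06 (9 of 30 pairs over 0.1). Between Tat+/Sal and Tat+/Meth all were positive, at 0.05 to 0.31. Differently numbered mice were not compared, so this cannot exclude pairing, and the mice were treated as unpaired. Named were all member probes and, from each companion list and comparison, up to 3 genes with the largest change that passed without overlap, with probes that disagreed or did not pass added as stated, and the 5 genes most like Neat1. The members and lists were chosen with earlier results of these data known. A marker of cortical excitatory neurons is not reported here.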

Additional observations from a re-analysis of the deposited data

Results flagged for a closer look

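Mirg was set apart because the effect of Meth differed between Tat+ and Tat- mice. The interaction was -0.89 ± 0.22 (limma, adjusted p = 0.00417), with all 5 Tat-/Meth mice above all Tat-/Sal mice whereas 1 of 5 Tat+/Meth mice was above and 3 were below all Tat+/Sal mice. These orders are for the scaled signal, and without scaling Tat-/Meth and Tat-/Sal mice overlapped. All Tat-/Meth arrays were on slide 1, so slide and group cannot be told apart, and with scaling to spike-in probes the term was -0.38 (adjusted p = 0.263).

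In Tat+/Sal mice, Malat1 in mouse 3 stood apart from the other 4, at a scaled log2 signal of 11.28 beside 10.99 to 11.06. Of the 16 groups of values examined for 4 members, this was the only one with such a gap, and chance gives about 1 in 20.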

How the results depend on the processing

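Without scaling, with the spike-in probes, with both fold thresholds and with fewer samples some counts of members that passed changed. In Tat-/Meth vs. Tat-/Sal the count was 2, and 1 with median scaling, no scaling (Peg13, lower), normexp, only the 2 groups compared or the methods' t-test with adjustment, 0 with the spike-in probes, and 0 when a change above 2-fold, or above 3-fold with an adjusted p under 0.01, was required. In Tat+/Meth vs. Tat-/Meth it was 3, and 1 without scaling or with the spike-in probes and 0 under both fold thresholds. For the interaction it was 1, and 0 with the spike-in probes and under both fold thresholds and 2 with slide as a random block. The other comparisons had 0 under every alternative run. Leaving out 1 mouse gave 1 to 3, 2 to 3 and 1 to 2 members in these comparisons in turn and 0 in the others. With the replicate number as a block the counts were 2, 3 and 1, and it changed no other call.

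Directions turned as follows. Without scaling, Tat-/Meth vs. Tat-/Sal gave -0.12 (Malat1), -0.088 (Neat1) and -0.32 (Peg13), Tat+/Meth vs. Tat-/Meth 0.034 (Malat1) and 0.22 (Peg13), Tat+/Meth vs. Tat-/Sal -0.082 (Malat1), and the interaction 0.32 (Malat1), 0.0046 (Neat1) and 0.39 (Peg13). With the spike-in probes the same comparisons gave -0.034 (Malat1), -0.0067 (Neat1) and -0.24 (Peg13), then 0.092 (Malat1) and 0.27 (Peg13), then 0.035 (Peg13), then 0.35 (Malat1), 0.029 (Neat1) and 0.41 (Peg13), with 0.022 for Neat1 in Tat+/Meth vs. Tat+/Sal. With median scaling, Tat+/Sal vs. Tat-/Sal gave 0.071 (Mirg), 0.055 (Neat1) and 0.0498 (Peg13), Tat+/Meth vs. Tat-/Sal -0.035 (Malat1) and Tat+/Meth vs. Tat+/Sal -0.11 (Peg13). With slide as a fixed block, Tat+/Sal vs. Tat-/Sal gave 0.24 (Mirg) and 0.11 (Peg13), and Peg13 in Tat+/Meth mice differed by 0.032 from Tat-/Sal and by -0.079 from Tat+/Sal mice, as within slides 2 and 3. Malat1 in Tat+/Meth vs. Tat-/Sal was -0.0042 with normexp and -0.0033 with slide as a random block. The causes were not tested.

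Leaving out 1 mouse turned the direction of 8 values, none of which passed. Against Tat-/Sal, Tat+/Meth ranged from -0.32 to 0.0007 (Mirg), from -0.049 to 0.058 (Malat1) and from -0.061 to 0.022 (Peg13). Against Tat+/Sal it ranged from -0.32 to 0.0026 (Mirg) and from -0.038 to 0.045 (Peg13). Tat+/Sal vs. Tat-/Sal ranged from -0.048 to 0.058 (Mirg), from -0.089 to 0.0801 (Neat1) and from -0.063 to 0.0075 (Peg13). The relation of Malat1 and Neat1 kept an unadjusted permutation p under 0.05 with quantile normalization (0.73), with slide means removed (0.77) and without the 2 farthest arrays (0.57). Adjustment over all relations was not repeated for these. Slide as a fixed block could not be fitted for comparisons with Tat-/Meth. The planned relation of Meg3, Rian and Mirg was not run, since Meg3 and Rian had no probe.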
